A study of Gallus gallus with 12 samples.

Results

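These 90 genes were the most abundant transcripts of sorted chick hypothalamic microglia whose group means stayed within set limits between saline and lipopolysaccharide (LPS). LPS is a component of the outer membrane of Gram-negative bacteria. The 90 came from the 11207 genes of the deposited count table and were chosen by measured values, namely mean abundance and both LPS differences. Counts were scaled to counts per 1000000 (CPM, the count over the total of its library, times 1000000), and the 100 genes with the highest mean CPM over 12 libraries were ranked. A gene was kept where the log2 difference of LPS from saline, computed on group mean CPM plus 5, was smaller than 0.5 in size both in non-conditioned and in conditioned chicks. Of the 100 genes, 10 lay outside these limits and 90 remained. Their abundance and their small LPS differences are therefore how they were chosen, and are given only as a description. Differences with heat conditioning, averaged over saline and LPS, and the spread between replicate pools of birds were not used to choose them.

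All birds were chicks (Gallus gallus) aged 11 days, and each library came from microglia sorted by FACS from the pooled anterior hypothalami of 10 to 12 chicks. Conditioned chicks had spent 24 h at 39°C on day 3 after hatching, and non-conditioned chicks had not. On day 10 either saline or LPS was injected into the third ventricle, so that no group was without an injection, and cells were taken on day 11. The 4 groups, of 3 libraries each, were saline without conditioning, LPS without conditioning, saline with conditioning and LPS with conditioning. The pooling means that the spread between libraries is a spread between pools and not between single birds. The p-values below set a difference of group means against that spread. It was estimated from all 4 groups together, with information shared between genes, and not from the compared libraries alone.

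Microglia are the resident macrophages of the brain. They survey the tissue, take up debris and respond to bacterial products such as LPS through pattern recognition receptors, with induction of cytokines and other immune genes. Transcripts of high abundance in macrophages commonly include those of ribosomal proteins, the cytoskeleton, lysosomal enzymes and antigen presentation. None of these roles could be assigned to the 90 genes, because the deposited counts name genes only by Ensembl identifier. The reference list of chicken genes used here held 0 Ensembl identifiers in 25635 entries, so no match was possible. For the same reason the labelled cell type could not be checked against microglial markers, or against markers of neurons, astrocytes or blood cells. The genes are called below by their rank in mean CPM among all genes, with rank 1 the most abundant, and 4 identifiers are given.

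Library totals ran from 189180 to 963146 counts, and between 7698 and 9573 genes had at least 1 count. A floor of 3 counts corresponded to 3.11 to 15.9 CPM. All 90 genes lay far above it in every library, with the lowest count of any of them between 238 and 1160 per library. All 90 passed the filter on low counts that left 5170 genes to be tested. Such floors, and the counting errors below, cover counting error only, since it is not known whether the counts are reads or molecules. No 2 replicate libraries agreed within the counting error of the deposited counts, which would be larger if these are reads of fewer molecules. The chi-square per degree of freedom was 2.02 to 9.74 over the 5170 tested genes and 8.79 to 49.5 over the 90. This ratio rises with the counts, so the 2 ranges are not compared. The libraries were made by MARS-seq, which reads the 3′ ends of transcripts, and no division by gene length was made, so ranks order genes by counts.

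The 90 genes held 30.1% to 33.7% of the counts of each library. The summed share was 32.9% ± 0.553 (SD, n = 3) in saline and 32.1% ± 1.37 in LPS without conditioning, against 31.9% ± 0.368 and 31.3% ± 1.21 with conditioning. The ranges of the 4 groups overlapped, those of the 2 saline groups only barely. Saline ran from 32.26% to 33.35% without conditioning and from 31.53% to 32.27% with it. The 10 genes of the top 100 that lay outside the limits held 8.49% ± 3.01, 8.74% ± 1.89, 10.4% ± 2.69 and 11.0% ± 1.21 in the same order of groups, and between 6.25% and 13.4% in single libraries. These are shares of a total, so a higher share of one set of genes lowers the shares of the others. In bulk samples fewer cells of a type and less RNA per cell cannot be told apart.

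Mean levels of the 90 genes fell from 19018 CPM at rank 3 to 1575 CPM at rank 100, with a median of 2505 CPM. Only 13 genes exceeded 5000 CPM, 53 lay between 2000 and 5000 CPM, and 24 lay below 2000 CPM. Of the 90 genes, 70 were among the 100 most abundant genes of every library, and 89 never fell below rank 150 in any of them. The exception was rank 26, which stood at rank 159 in 1 library. The same libraries chose the genes by mean CPM, so these counts are a description and do not measure order. In single libraries the gene of rank 3 stood between rank 2 and rank 5, and that of rank 73 between rank 28 and rank 146.

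The gene of rank 3, the most abundant of the 90, stood at 15158, 18734 and 18026 CPM in the 3 saline libraries and 22822, 19077 and 20483 CPM in the 3 LPS libraries without conditioning. With conditioning it stood at 18013, 20921 and 18894 CPM in saline and 18802, 16941 and 20348 CPM in LPS. The LPS libraries all lay above the saline ones in non-conditioned chicks, and the groups overlapped in conditioned chicks. The gene of rank 4 ranged from 16007 to 16978 CPM in saline and from 16410 to 19208 CPM in LPS without conditioning, and from 15136 to 19160 CPM and from 15634 to 17154 CPM with it. All 4 groups of rank 4 overlapped. Rank 20, the gene whose larger LPS difference of both arms was the smallest of the 90 (0.023 log2 in size), had 5190, 4905 and 4863 CPM in saline and 5561, 4380 and 4805 CPM in LPS without conditioning. Its conditioned libraries had 4275, 5093 and 5046 CPM in saline and 4152, 4613 and 5420 CPM in LPS, so that single pools differed far more than the group means.

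**Figure D1:**
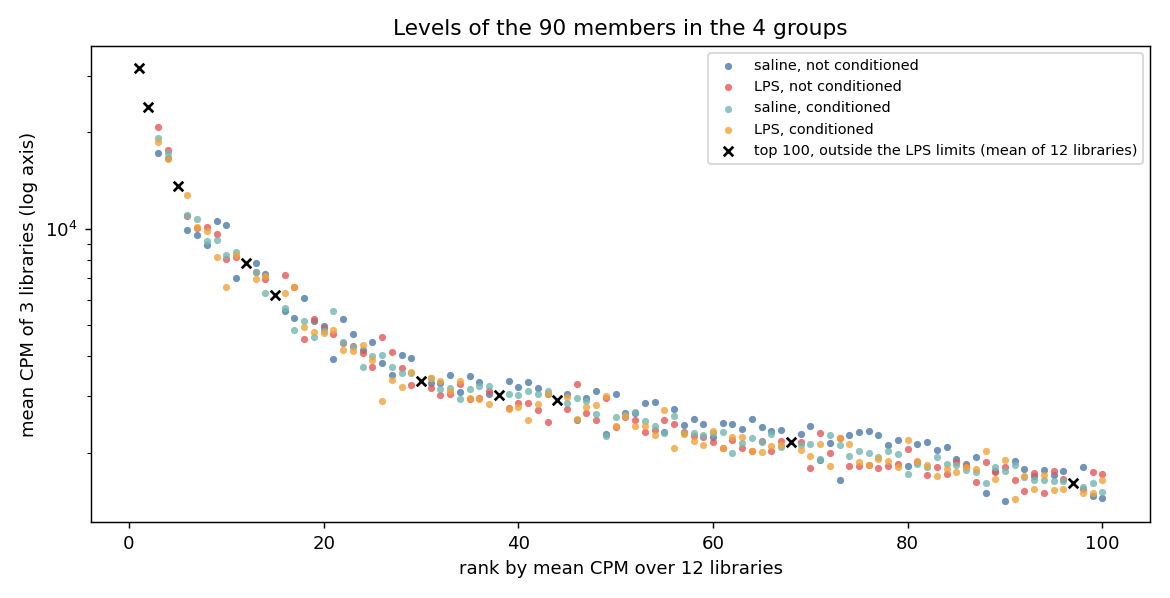
Mean CPM (log axis) of the 90 genes in each of the 4 groups of 3 libraries, against their rank by mean CPM over 12 libraries. Levels fall from 19018 CPM at rank 3 to 1575 CPM at rank 100, and the 4 groups lie close together at most ranks.

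The LPS differences that chose the genes had more negative than positive values. The log2 difference in CPM had a median of -0.14 (range -0.43 to 0.43) without conditioning and -0.05 (range -0.48 to 0.46) with conditioning. It was below 0 in 64 of 90 genes in the first case and 59 in the second. In 47 genes both differences were negative and in 14 both were positive, while in 17 only the non-conditioned one and in 12 only the conditioned one was negative. Both differences were smaller than 0.1 in size in 15 genes and smaller than 0.2 in 37. These counts were taken on shares of the total, and the 2 contrasts used different libraries.

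Near the limits, the conditioned difference was -0.48 for rank 26 and 0.46 for rank 17, and the non-conditioned difference was 0.43 for rank 73 and -0.43 for rank 70, all just inside. By the larger of both differences, the nearest genes outside were rank 38, with 0.48 without and 0.53 with conditioning, then rank 30, with -0.42 and -0.58, and rank 5, with 0.52 and 0.70. Rank 44, with -0.74 and 0.50, lay farther out. Of the 10 genes outside the limits, 5 were higher and 3 lower with LPS in both arms, and 2 had differences of opposite sign. At the other limit of the rule, rank 100 had a mean of 1574.8 CPM and the next gene, which was not kept, had 1571.9 CPM.

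A small difference of means did not always go with overlapping libraries. Without conditioning, all 3 LPS libraries lay above all 3 saline libraries in 2 of the 90 genes, where 6.27% of the 5170 tested genes did, and below them in 19 genes, where 5.49% did. With conditioning, they lay above in 4 genes against 7.37% of all tested, and below in 9 genes against 8.05%. The rule used these contrasts and nothing is read from the counts. Rank 64 is an example. It had 2568, 2469 and 2595 CPM in saline and 2106, 2023 and 1935 CPM in LPS without conditioning, a log2 difference of -0.33, and its groups did not overlap. Its conditioned libraries had 2002, 2189 and 2467 CPM in saline and 2013, 2034 and 2015 CPM in LPS, and these overlapped. In edgeR's quasi-likelihood test, with Benjamini-Hochberg adjustment over 5170 genes, 0.542% of all genes differed between LPS and saline without conditioning. With conditioning 0.174% did. None of the 90 was among them. The limits on these same contrasts largely fixed that in advance, and nothing is read from it.

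**Figure D2:**
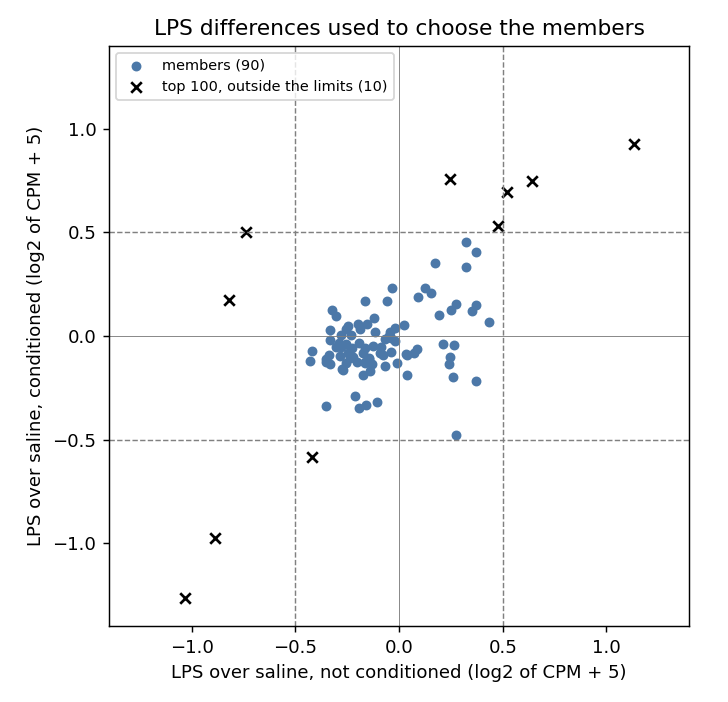
The log2 difference of LPS from saline in conditioned chicks (y) against that in non-conditioned chicks (x), on group mean CPM plus 5, for the 100 most abundant genes. The 90 dots fill the square between the dashed limits at 0.5, with more of them left of and below 0, and the 10 crosses are the genes outside it.

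None of the 90 genes was called different between chicks that had been heat conditioned a week before the injection and chicks that had not. With the effect averaged over saline and LPS, 0 of 90 passed an adjusted p of 0.05 in edgeR's quasi-likelihood test, and 1 of the 5170 genes tested (0.0193%) did. The smallest adjusted p among the 90 was 0.990. At an unadjusted p under 0.05, 0 genes were higher in conditioned chicks, where 1.74% of all tested genes were, and 2 were lower, where 2.92% were. DESeq2 and limma, with quantile normalization or with weights on the libraries, also called 0 of the 90.

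The 95% interval of the log2 difference reached a median of 0.225 to either side among the 90 genes (range 0.199 to 0.547), against 0.464 over all tested genes. It lay wholly within 0.5 of 0 in 86 of the 90, or 95.6%, compared with 31.9% of all tested genes. The exceptions were ranks 10, 21, 26 and 73. The genes of the next 100 ranks that met the same limits gave 85 of 89, or 95.5%. The narrow intervals were therefore not particular to the 90. The 10 genes of the top 100 outside the limits gave 3 of 10, or 30%, with a median reach of 0.334 to either side. The limits on differences of means also keep out genes with a large spread, so this last contrast is a description.

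Single differences ran from -0.30 to 0.27 log2, 71 of them below 0 and 19 above. Of all 5170 tested genes, 2706 lay below 0 and 2464 above. Of the 89 genes of the next 100 ranks within the limits, 53 lay below 0 and 36 above. Of the 10 genes outside the limits, 2 lay below 0 and 8 above. The median of the 90 was -0.06 against -0.01 over all tested genes. This median moved between -0.081 and -0.013 when 1 library at a time was left out, the latter without replicate 3 of saline without conditioning. It shrank by more than 1.5 times also without replicate 2 of LPS without conditioning (-0.037). The same held without replicate 2 of saline with conditioning (-0.037) or replicate 1 of LPS with conditioning (-0.038). It was -0.031 with no filter on low counts and -0.0096 after quantile normalization. The median level of the 90 in single libraries had an SD of 0.089 log2 within groups. All genes share the library totals, so the signs of the 90 differences are not independent.

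The lowest p belonged to ENSGALG00000004594.6, the gene of rank 10. It had 10878, 10424 and 9437 CPM in saline and 10698, 6019 and 7359 CPM in LPS without conditioning. In conditioned chicks it had 8176, 8120 and 8606 CPM in saline and 6983, 6356 and 6392 CPM in LPS. The conditioned libraries lay below all non-conditioned ones in saline, and within their range in LPS, where replicate 1 of the non-conditioned group stood far above the other two. The log2 difference was -0.30 ± 0.12 (SE; 95% interval -0.55 to -0.05; unadjusted p = 0.0207, edgeR adjusted p = 0.99), and it was -0.15 without that replicate.

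The gene of rank 9 came next, at 11734, 10958 and 9145 CPM in saline and 11409, 9114 and 8376 CPM in LPS without conditioning. Conditioned chicks had 8191, 10088 and 9317 CPM in saline and 8307, 7741 and 8471 CPM in LPS. The groups overlapped under either injection, and the difference was -0.22 ± 0.10 log2 (SE; unadjusted p = 0.0376, edgeR adjusted p = 0.999). Rank 28 was the one gene whose conditioned libraries all lay below the non-conditioned ones under both injections. Its saline libraries had 3779, 3811 and 4479 CPM without and 3470, 3408 and 3723 CPM with conditioning. Its LPS libraries had 3667, 3392 and 3950 CPM without and 3371, 3092 and 3190 CPM with conditioning. The separation was narrow in both, and the log2 difference of -0.20 ± 0.105 (SE; edgeR adjusted p = 0.999) did not pass the test.

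The second gene by size of a negative difference was ENSGALG00000043598.1, of rank 26, at -0.26 ± 0.26 (SE; 95% interval -0.81 to 0.28; edgeR adjusted p = 0.999). Its saline libraries without conditioning had 4721, 5762 and 925 CPM, and those with LPS had 6100, 4318 and 3402 CPM. With conditioning it had 4528, 4255 and 3344 CPM in saline and 2323, 4164 and 2225 CPM in LPS. A single pool, replicate 3 of saline without conditioning, stood far below all others, and the groups overlapped. The difference ranged from -0.49 to -0.03 when 1 library was left out, the latter without replicate 2 of saline without conditioning.

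The 2 largest positive differences belonged to ENSGALG00000042750.1, of rank 21, and ENSGALG00000036956.1, of rank 73. Rank 21 had 3097, 3758 and 4890 CPM in saline and 6090, 3937 and 4027 CPM in LPS without conditioning, and 7230, 4915 and 4531 CPM and 4250, 6639 and 3646 CPM with it. One pool in each of 3 groups stood well above the other two, and all groups overlapped. The log2 difference was 0.27 ± 0.18 (SE; edgeR adjusted p = 0.999) and fell to 0.12 without replicate 2 of LPS with conditioning. Rank 73 had 1810, 2009 and 1102 CPM in saline and 2971, 2003 and 1679 CPM in LPS without conditioning, and 2414, 1816 and 2124 CPM and 1298, 3666 and 1689 CPM with it. Its log2 difference of 0.20 ± 0.20 (SE; edgeR adjusted p = 0.999) turned to -0.085 without the same replicate 2, which held the highest of its 12 values.

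**Figure D3:**
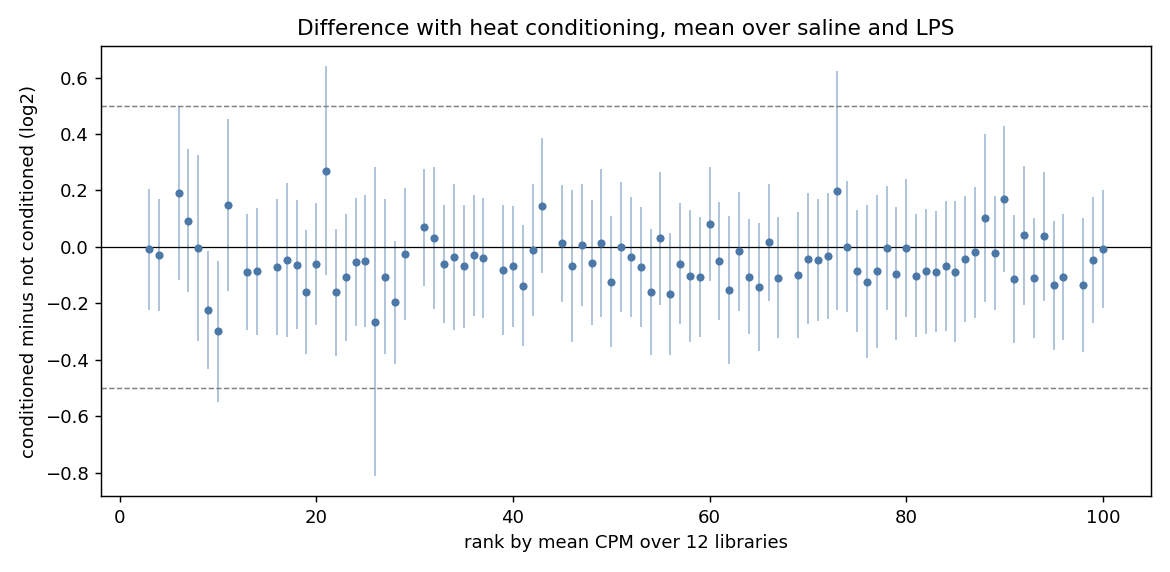
The log2 difference of conditioned from non-conditioned chicks, averaged over saline and LPS, for each of the 90 genes by rank, with 95% intervals from edgeR as lines. In 86 of 90 genes the interval stays between the dashed lines at 0.5 on either side of 0, and only those of ranks 9 and 10 lie wholly below 0.

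Within each injection none of the 90 genes was called either, and the intervals were wider. These comparisons share their libraries with the LPS contrasts that chose the genes. In saline, 0 of 90 genes passed the edgeR test and 0 of all 5170 did (0%). None of the 90 had an unadjusted p under 0.05, where 2.24% of all tested genes were higher and 2.71% lower at that p. Of the 90, 69 lay below 0 and 21 above, and of all tested genes 2693 and 2477 did. The median log2 difference of the 90 was -0.12 against -0.02 over all tested genes. That median was -0.18 without replicate 1 and -0.042 without replicate 3 of saline without conditioning, and the 89 genes of the next 100 ranks that met the same limits had a median of -0.11. Under LPS again 0 of 90 and 0 of 5170 genes passed (0%), and 0 of 90 had an unadjusted p under 0.05, where 2.36% of all tested genes were higher and 4.22% lower. Of the 90, 51 lay above 0 and 39 below, and of all tested genes 2613 and 2557 did. The median of the 90 under LPS was 0.03, and it had no stable sign. It was -0.0123 without replicate 2 of LPS with conditioning, -0.0024 without replicate 2 of LPS without conditioning and -0.0093 after quantile normalization. DESeq2 and both limma fits called 0 of the 90 in either comparison.

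Genes whose conditioned and non-conditioned libraries did not overlap are given beside the share of all tested genes, as a description. In saline, the 3 conditioned libraries lay above the others in 1 gene, rank 46, where 4.62% of all tested genes did, and below them in 7 genes, where 4.27% did. Under LPS they lay above in 3 genes, ranks 31, 43 and 74, where 5.51% of all tested genes did, and below in 2 genes, ranks 28 and 56, where 8.3% did. Rank 43 had the largest positive difference under LPS. It stood at 2452, 2518 and 2527 CPM without conditioning and 3138, 2979 and 3040 CPM with it, and the groups lay well apart. Its log2 difference of 0.31 ± 0.16 (SE; edgeR adjusted p = 0.776) did not pass the test. In saline the same gene had 2549, 2928 and 3687 CPM without and 2906, 3251 and 3213 CPM with conditioning, and the groups overlapped.

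The estimated spread between replicate pools was larger than counting error alone would give in all 90 genes. Single genes were not tested for this, and some lay close to their counting error. The coefficient of variation between pools, pooled over the 4 groups, had a median of 10.1% (range 4.36% to 41.9%), while counting error alone would give a median of 3.28%. The value was under 10% in 44 genes, under 15% in 73 and under 20% in 82. The 10 genes outside the limits had a median of 25.0% (at most 51.8%), and the 89 genes of the next 100 ranks within the limits had 11.7%. A limit on differences of means also keeps out genes with a large spread, so these medians are a description. By group, the median of the 90 was 11.0% in saline and 9.40% in LPS without conditioning, and 8.56% and 6.88% with conditioning.

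The range over all 12 libraries also holds the differences between groups. The rule limited those between LPS and saline, so this range is a description. The highest library exceeded the lowest by a median factor of 1.47 (range 1.21 to 6.59), and by less than 2 in 84 of 90 genes. The factor was under 2 in 83 of the 89 genes of the next 100 ranks within the limits. It was under 2 in 0 of the 10 genes outside the limits. Rank 89 varied least between pools, with a coefficient of variation of 4.36% where counting alone gave 3.89%. It had 1753, 1781 and 1723 CPM in saline and 1737, 1704 and 1786 CPM in LPS without conditioning, and 1758, 1897 and 1768 CPM and 1601, 1569 and 1784 CPM with it. All 4 groups of rank 89 overlapped or lay next to each other. Ranks 64 and 100 followed with 5.83% and 5.93%. At the other end, rank 26 had 41.9%, rank 73 had 36.2% and rank 21 had 27.2%. Ranks 8, 17, 49, 11 and 6 also reached 20%.

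Among the genes kept by the rule, those of highest abundance did not have the lowest spread. The median coefficient of variation was 14.1% in the 13 genes over 5000 CPM and 9.64% in the 53 genes between 2000 and 5000 CPM. It was 11.0% in the 24 genes below 2000 CPM. Counting error alone would fall as counts rise. Less abundant genes outside the kept set were not part of this comparison. The 13 genes include rank 6 and ranks 7, 8, 11 and 14, which followed it in their deviations, as described below. Their spreads are therefore not independent.

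**Figure D4:**
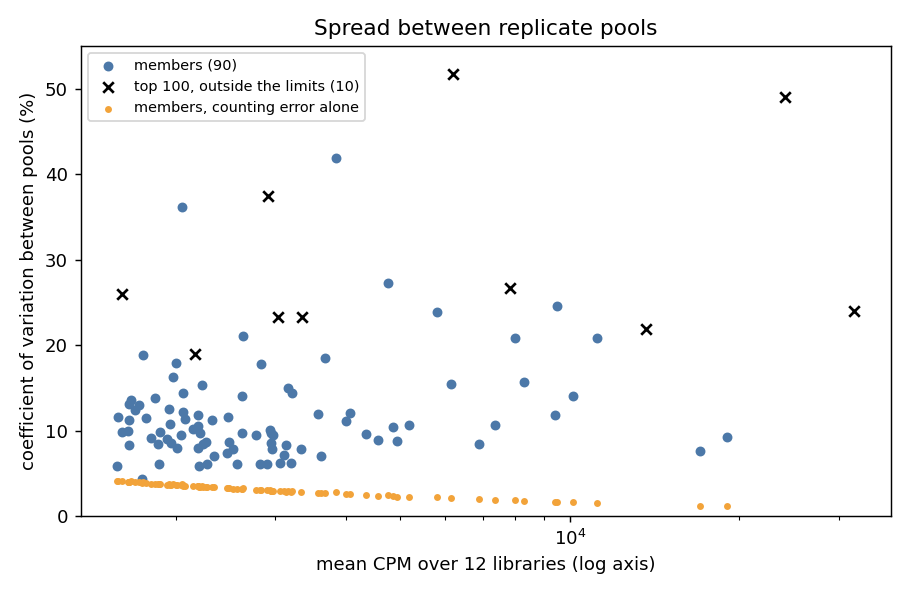
Coefficient of variation between replicate pools (y, pooled over the 4 groups of 3) against mean CPM over 12 libraries (x, log axis) for the 90 genes and the 10 genes outside the limits, with the part that counting error alone gives for the 90 as small dots. All 90 genes lie above their counting error, and the highest is rank 26 at 41.9%.

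Several of the genes with a large spread were high and low in the same pools. For each gene, log2 of CPM plus 5 was taken as a deviation from its group mean in the 12 libraries, and these deviations were correlated between genes. All values share the library totals, and the correlations are a description over 12 libraries. Over all 4005 pairs the median r was 0.117 (range -0.918 to 0.971). The gene of rank 6 was followed with r of at least 0.7 by 6 others, namely rank 7 (r = 0.937), rank 21 (0.887), rank 8 (0.880), rank 11 (0.752), rank 14 (0.743) and rank 73 (0.700). The next gene, rank 46, had r = 0.536, and 68 of the 90 genes had r below 0 with rank 6. These 7 genes were grouped after their values were seen, and they include 5 of the 8 genes whose coefficient of variation reached 20%.

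Rank 6 itself had 9105, 9985 and 10578 CPM in saline and 12964, 10024 and 9975 CPM in LPS without conditioning. With conditioning it had 13928, 8564 and 10728 CPM in saline and 10898, 17066 and 10368 CPM in LPS. One pool stood above the other two in 3 of the 4 groups. Rank 7 had 9299, 9827 and 9551 CPM in saline and 11183, 9391 and 9620 CPM in LPS without conditioning, and 13351, 8860 and 10054 CPM and 9001, 11867 and 9595 CPM with it, highest in the same pools. Rank 8 had 13486 CPM in LPS without conditioning, replicate 1, 11136 CPM in saline with conditioning, replicate 1, and 13602 CPM in LPS with conditioning, replicate 2, against 7791 to 9496 CPM in its other 9 libraries.

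All 7 genes stood above their group means in those same 3 libraries. Together they held 6.45%, 6.52% and 7.12% of the counts there, and between 4.61% and 5.09% in the other 9. The 7 genes were grouped on these same deviations, so their position and share in the 3 libraries follow in part from the grouping. The 3 libraries had totals of 317724, 589900 and 504861 counts, within the range of all libraries. The other 83 genes held between 25.0% and 28.3% of each library. The 3 libraries belong to 3 groups, and what they share beyond these genes was not tested.

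**Figure D5:**
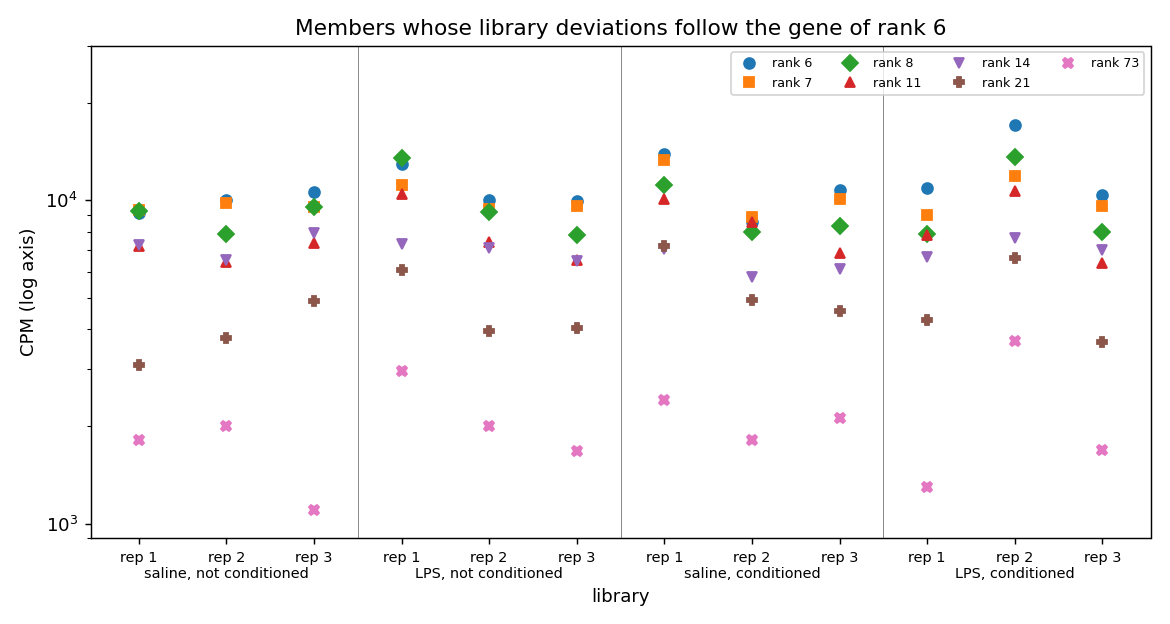
CPM (log axis) in each of the 12 libraries for rank 6 and the 6 genes whose deviations followed it with r of at least 0.7. All 7 genes lie above their group means in replicate 1 of LPS without conditioning, replicate 1 of saline with conditioning and replicate 2 of LPS with conditioning. Rank 14 was nonetheless highest in replicate 3 of saline without conditioning, at 7930 CPM.

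Other genes moved together in smaller sets. The closest pair was ranks 17 and 49 (r = 0.971 over 12 libraries). Rank 17 had 7989, 4149 and 3606 CPM in saline and 6163, 7140 and 6428 CPM in LPS without conditioning, and rank 49 had 3313, 1871 and 1682 CPM and 2782, 3163 and 2926 CPM. With conditioning rank 17 had 4586, 5220 and 4638 CPM in saline and 6309, 7311 and 6190 CPM in LPS, and rank 49 had 2348, 2303 and 2135 CPM and 2931, 3439 and 2632 CPM. Both genes were highest of their group in replicate 1 of saline without conditioning, and in conditioned chicks all LPS libraries of both lay above the saline ones. Ranks 55 and 62 (r = 0.970), 47 and 50 (0.961) and 3 and 19 (0.953) were the next closest pairs. Without gene names, whether such pairs are near-identical copies that share reads is not known here.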

How the data were processed

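RNA of 12 microglial pools was read by bulk MARS-seq, per the labels' protocols. Tools listed in the submitters' processing notes are STAR, cutadapt, DESeq2 and HTSeq, with the build galGal5. Their versions, the annotation release, the strand setting and any use of molecular identifiers are not given in these sources, so overlapping genes and near-identical copies are uncertain. The authors deposited raw counts per gene and library, per the file headers, and these were used in every test. The normalized signal deposited by the authors is the count times 1 factor per library (1.13 to 6.25), and served only as an alternative scaling that was chosen after seeing the data. Library totals were 189180 to 963146 counts, and 340 of 11207 genes had none.

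CPM was computed on column totals. edgeR 4.0.16 (R 4.3.3; TMM, filterByExpr with a minimum count of 10, quasi-likelihood test, 1 mean per group, all 12 libraries) tested 5170 genes, with Benjamini-Hochberg adjustment over all of them, and a threshold of 0.05. It was also run on simulated data, whose planted changes were larger than any averaged conditioning difference among the 90. That run does not cover differences as small as theirs. The standard error of a log2 difference was its size over the square root of F. DESeq2 1.42.0, limma 3.58.1, other scalings and filters, a replicate block and leaving out each library were alternatives. The 90 genes, lists and rules were chosen with earlier results of these data known. The genes described singly were the first 5 by rank, the 3 of lowest p for conditioning, the 3 of highest and lowest spread, and those next to each limit, with others shown as examples after their values were seen. Identifiers were printed for the 2 largest differences in each direction. The planned gene lists and cell type markers could not be applied, since the reference list held no Ensembl identifiers to link to symbols.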

Additional observations from a re-analysis of the deposited data

How the results depend on the processing

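The number of the 90 genes called for conditioning was 0 under every setting run. The 90 became 179 from the 200 most abundant genes, 66 with a limit of 0.3 and 84 on group medians, and leaving out 1 library gave 85 to 92, with 77 of the 90 in all 12 lists. Over all tested genes the mean effect of conditioning had 1 call, 2 with DESeq2, 37 with no filter on low counts, 2 with the replicate block and 0 to 6 with 1 library left out. In saline it had 0, 8 with no filter and 0 with 1 library left out. Under LPS it had 0, 1 with DESeq2 and 1 with quantile normalization, 64 with no filter, 2 with the block, 13 with only the compared libraries and 0 to 16 with 1 left out. LPS without conditioning had 28 calls, 11 with library weights, 80 with no filter, 11 with only the compared libraries, 25 with the block and 8 to 65 with 1 left out. LPS with conditioning had 9, then 25, 65, 54, 10 and 2 to 22 in the same order. The interaction had 0 calls, 35 with no filter, 0 with the block and 0 to 5 with 1 left out. The cause was not tested.

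By the criterion used, a correlation over 0.1 in every pair, the replicate numbers were not taken to pair the samples: deviations of same-numbered libraries correlated by -0.112 to 0.129, with 2 of 18 pairs over 0.1. Differently numbered libraries correlated by -0.159 to 0.133, with 2 of 36 pairs over 0.1. The median r was 0.022 for the same number and -0.017 for different numbers. As a hint of shared deviations from the data, 7 of 12 libraries correlated best with their own number. Whether that count exceeds the one of a random order was not tested. In the 82 of the 90 genes with a spread under 20%, the median log2 deviation from the group mean was below 0 for replicate 1. The values in the 4 groups were -0.0871, -0.0503, -0.0835 and -0.0294. For replicate 3 they were above 0 (0.0591, 0.0351, 0.0664 and 0.0651). In the other 8 genes replicate 3 lay below 0 in all 4 groups (-0.150, -0.238, -0.100 and -0.257). Replicate 1 of these 8 genes had 0.130, 0.401, 0.230 and -0.166 in the same order of groups. The summed share was 33.8% (saline) and 32.8% (saline with conditioning) of the tested genes' counts, and 22.3%, 21.2%, 21.2% and 20.8% without the 10 most abundant of the 90, in the order saline, LPS, saline conditioned, LPS conditioned. With 1 library left out it was 32.6% to 33.1%, 30.7% to 32.5% over LPS groups and 31.7% to 32.1%. The spread was 8.27% in the conditioned groups alone and 9.56% to 11.0% with 1 library left out. The gene ENSGALG00000036956.1 reversed to -0.085 without replicate 2 of LPS with conditioning and reached 0.35 without replicate 1 of LPS without conditioning, and the median in saline was -0.0087 after quantile normalization and -0.18 to -0.042 with 1 library left out. Counting error was below the spread between pools in all 90 genes but close to it in some (3.89% of 4.36% in rank 89, 4.14% of 5.93% in rank 100), and it would be larger if the counts are reads of fewer molecules.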
